A study of Mus musculus with 11 samples.

Results

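The Impg1 locus window was taken as chr9:80461000-80612000 of the mm10 mouse genome, with 200 kb on each side as flanks. It was read in a deposited table of non-coding features, and a feature belonged to the window if any of its bases lay there. The rule found 29 of 36097 unique features in the window, 11 in the flank on the lower-coordinate side and 0 in the other flank. Earlier results of the same comparison had led to the choice of the window, so the difference between genotypes within it is given as a description. Calls on members from fits over the whole table are counted beside the share of all features called, and no result is read from them. The libraries came from retinas at postnatal day 21, after removal of polyadenylated RNA. There were 6 Nrl knockout libraries and 5 wild-type libraries, sequenced as single-end stranded reads of 50 bp. The labels number the libraries within a genotype without naming animals, so the spread given here is that between libraries, which may be technical in part. The labels name the genotypes no further than Nrl knockout and wild-type, and for the allele, the strain and the number of retinas per library nothing is given in the sources used here.

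Impg1 encodes interphotoreceptor matrix proteoglycan 1, a chondroitin sulfate proteoglycan that photoreceptors secrete into the matrix around their inner and outer segments. Nrl is the leucine zipper transcription factor of the MAF family that sets the rod fate. Photoreceptors made without it resemble cones, and the mouse retina normally holds far more rods than cones. Non-coding RNA without a poly(A) tail includes transcripts of enhancers, upstream and antisense transcripts, and unspliced fragments.

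The promoter of Impg1 is shown because the gene is transcribed away from the run of window features that lies beside it. The sequence is RefSeq's for build GRCm38.p6, the mm10 assembly, on the minus strand at chr9:80465389-80465688, with 250 bases before the RefSeq start and 50 after it. The GENCODE M21 start at 80465481, from which distances are given below, is a different base within this stretch. The capitals mark GATTA, the reverse complement of TAATC, a core bound by photoreceptor homeodomain factors such as CRX.
Impg1 promoter: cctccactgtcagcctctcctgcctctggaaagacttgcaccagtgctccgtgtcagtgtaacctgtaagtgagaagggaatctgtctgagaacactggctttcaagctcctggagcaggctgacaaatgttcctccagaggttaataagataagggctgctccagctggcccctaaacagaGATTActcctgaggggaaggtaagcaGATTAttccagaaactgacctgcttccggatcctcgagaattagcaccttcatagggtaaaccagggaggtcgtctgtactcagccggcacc

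TAATC was searched on both strands and matched 2 times, its first printed base lying 68 and 42 bases before the RefSeq start. By the GENCODE start, the match nearer the RefSeq start lies inside the gene. Of 32851 mouse promoters of the same length, 22% held it and 3.94% held 2 or more matches. TGCTGA, a core of the sites bound by large MAF factors such as NRL, had 0 matches in these letters on either strand, and 19.5% of promoters held it. A match describes letters and not binding, and no match says only that these letters are not in this stretch.

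A second stretch is shown because it is the one place where a window feature crosses an annotated exon. MSTRG.92748 (chr9:80544622-80545552, plus strand) covers the last exon, of 43 bases, of Gm48387, an annotated long intergenic non-coding RNA on the minus strand. These are the shared bases, at chr9:80544763-80544805, as the plus strand reads them, from the GENCODE M21 transcripts.
Shared stretch of MSTRG.92748: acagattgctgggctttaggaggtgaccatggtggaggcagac

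The window held a one-stranded run of short features. All 29 members were on the plus strand and 0 on the minus strand. Each of the 28 neighbouring pairs within the window therefore shared a strand, while 77.0% of 36077 neighbouring pairs over the whole table did. All 29 lay whole inside the borders, from 80461917 to 80611746, a span of 149.83 kb. Member lengths had a median of 374 bp, against 235 bp over all listed features. The shortest was MSTRG.92750 at 100 bp, and 28 of 29 were shorter than 1 kb. The exception was MSTRG.92754, at 22180 bp.

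The name of the locus covers the gene less well than its upstream side. Impg1 runs on the minus strand from 80465481 down to 80313330 in GENCODE M21, so most of the gene body lies in the flank. Only 1 member, MSTRG.92726 (80461917 to 80462345, 429 bp), overlapped Impg1. It lies in an intron, on the strand opposite to the gene, and its nearer end is 3.136 kb inside the gene's start. The other 28 members lie upstream of the gene, from 38.607 to 146.265 kb before its start. Of all 29, 20 overlapped no annotated gene, and 8 lay over Gm48387 (80544763 to 80601097), on the strand opposite to it. Of those 8, MSTRG.92748 alone touched an exon. No listed feature over Impg1 was on the gene's own strand, so the gene's transcript itself was not measured here. The sources used here do not state whether strand entered the counting, so some reads of Impg1 or Gm48387 could be counted in a feature lying opposite to them.

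Summed over the window, the signal in the Nrl knockout was well under that in the wild-type. Values are the authors' normalised counts, which are read counts divided by a factor for each library. The 6 knockout libraries had sums of 63.6 at the lowest, 68.7 at the median and 79.1 at the highest. The 5 wild-type libraries had sums of 517, 502, 471, 450 and 499. Every knockout sum was far below every wild-type sum, and the groups did not overlap. The mean was 70.1 ± 7.11 in knockout libraries and 488 ± 27.0 in wild-type libraries (SD, n = 6 and 5). Knockout libraries thus kept 14.4% of the wild-type mean, a log2 ratio of -2.80. These sums rest on 457 reads over the 6 knockout libraries and 2377 reads over the 5 wild-type libraries.

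The feature inside Impg1 and the upstream run differed in how much signal was left. MSTRG.92726, antisense to the first part of Impg1, had 19.7 normalised counts at the lowest, 35.8 at the median and 46.4 at the highest in knockout libraries. Its wild-type values were 61.7, 64.9, 72.4, 73.5 and 67.6. All knockout values were lower and the groups did not overlap, with means of 34.2 ± 8.75 in knockout and 68.0 ± 4.97 in wild-type (SD, n = 6 and 5). Knockout libraries held 50.2% of the wild-type mean there.

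The 28 upstream features together had 17.2 at the lowest, 38.5 at the median and 44.0 at the highest in knockout libraries. Their wild-type sums were 455, 437, 398, 376 and 432. The mean was 36.0 ± 10.1 in knockout and 420 ± 31.8 in wild-type (SD, n = 6 and 5), so that 8.57% of the wild-type level was measured in the knockout. This was 238 reads in all 6 knockout libraries and 2042 reads in the 5 wild-type libraries.

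MSTRG.92726 made up a larger share of the window signal in the knockout. It held 31.0% to 73.0% of the window signal in knockout libraries, a mean of 48.9 ± 13.6%, and 11.9% to 16.3% in wild-type libraries, a mean of 14.0 ± 1.80% (SD, n = 6 and 5). The ranges did not overlap. Within a genotype, the extreme libraries at MSTRG.92726 were the opposite extremes of the upstream sum. Knockout 2 had the highest value at MSTRG.92726 and the lowest upstream sum, 17.2. Knockout 5 had the lowest value at MSTRG.92726 and the highest upstream sum, 44.0. That sum was nearly tied with the 43.9 of knockout 6, which had 35.1 at MSTRG.92726. Among wild-type libraries, replicate 1 was lowest at MSTRG.92726 and highest upstream, and replicate 4 was highest at MSTRG.92726 and lowest upstream. The extremes are named after their values were seen, and their opposition was not tested.

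**Figure D1:**
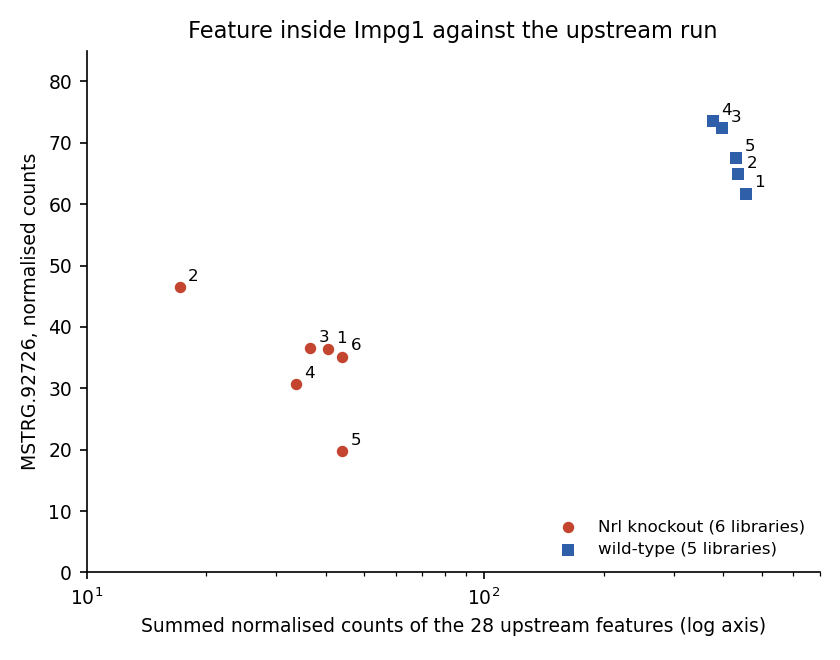
Normalised counts of MSTRG.92726, the feature inside Impg1 (vertical axis), against the sum of the 28 upstream features (horizontal log axis), with 1 point per library and its replicate number beside it. Knockout libraries lie between 17.2 and 44.0 on the horizontal axis and wild-type libraries between 376 and 455.

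Per kilobase of feature, MSTRG.92726 was also the densest member. It had 79.6 normalised counts per kb in knockout and 159 in wild-type. The median over all 29 members was 2.60 normalised counts per kb in knockout and 34.5 in wild-type. Over all 36097 listed features the medians were 26.9 in both genotypes. In wild-type the window members were thus of common density for this table, and in the knockout their median was far below the table's.

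**Figure D2:**
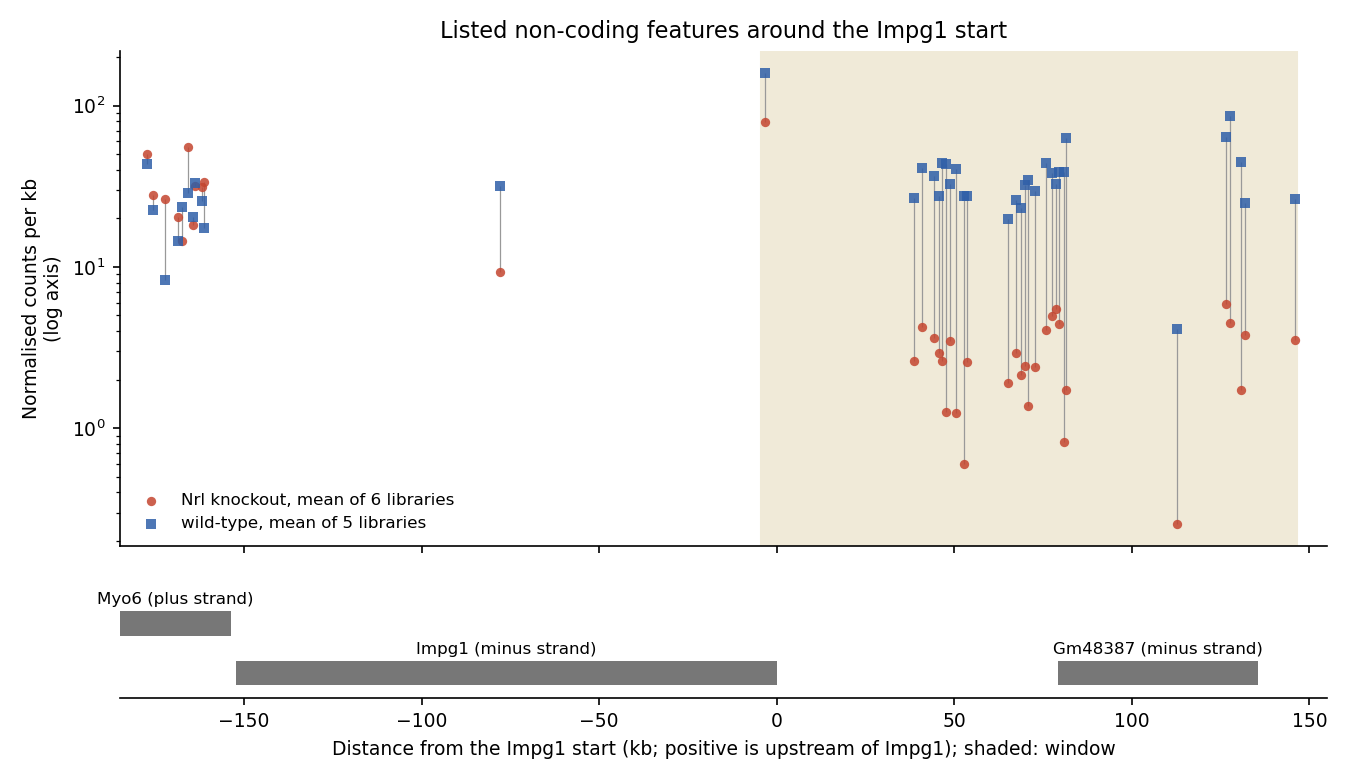
Mean normalised counts per kb (vertical log axis) of every listed feature of the window and its flanks, by distance in kb from the start of Impg1 (positive is upstream of the gene), with 1 knockout and 1 wild-type point joined for each feature and the annotated genes drawn as bars. Knockout points lie below wild-type points at all 29 features of the shaded window, and at the 10 features over Myo6 on the left the order is mixed.

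The features fell into 5 groups set apart by 4 gaps of more than 10 kb. MSTRG.92726 stood alone, and the gap from it to the next feature was 41.7 kb. The nearest upstream group, 38.6 kb from the start, had 10 features (MSTRG.92728 to MSTRG.92737, 80504088 to 80519151). Its sum was 7.55 ± 2.05 normalised counts in knockout and 90.1 ± 11.6 in wild-type, 8.37% of the wild-type level. Its members were alike in density in wild-type, at 26.7 to 43.8 normalised counts per kb. In knockout they spread more widely in proportion, at 0.603 to 4.26, on 50 reads in all 6 knockout libraries.

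The next group, 65.0 kb upstream, had 12 features (MSTRG.92739 to MSTRG.92750, 80530452 to 80546890) and the largest upstream sum. It measured 16.9 ± 6.43 in knockout and 172 ± 27.0 in wild-type, 9.82% of the wild-type level. The third upstream group, at 101.6 kb, had 5 features (MSTRG.92754 to MSTRG.92758, 80567050 to 80597376), all over Gm48387. It measured 9.91 ± 2.06 in knockout and 145 ± 49.1 in wild-type, 6.81% of the wild-type level. The farthest, MSTRG.92760 (80611287 to 80611746), was alone at 145.8 kb and measured 1.62 ± 1.5 in knockout and 12.1 ± 6.03 in wild-type, 13.3% of the wild-type level (SD, n = 6 and 5 throughout).

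The percentage left in the knockout showed no steady trend with distance over these upstream groups. Feature by feature it ran from 2.11% at MSTRG.92749 to 16.8% at MSTRG.92747, with a median of 9.31%. All 28 lay below the 50.2% of MSTRG.92726. The lowest percentages rest on few reads, since MSTRG.92749 had 1 read in 6 knockout libraries and 33 in 5 wild-type libraries.

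**Figure D3:**
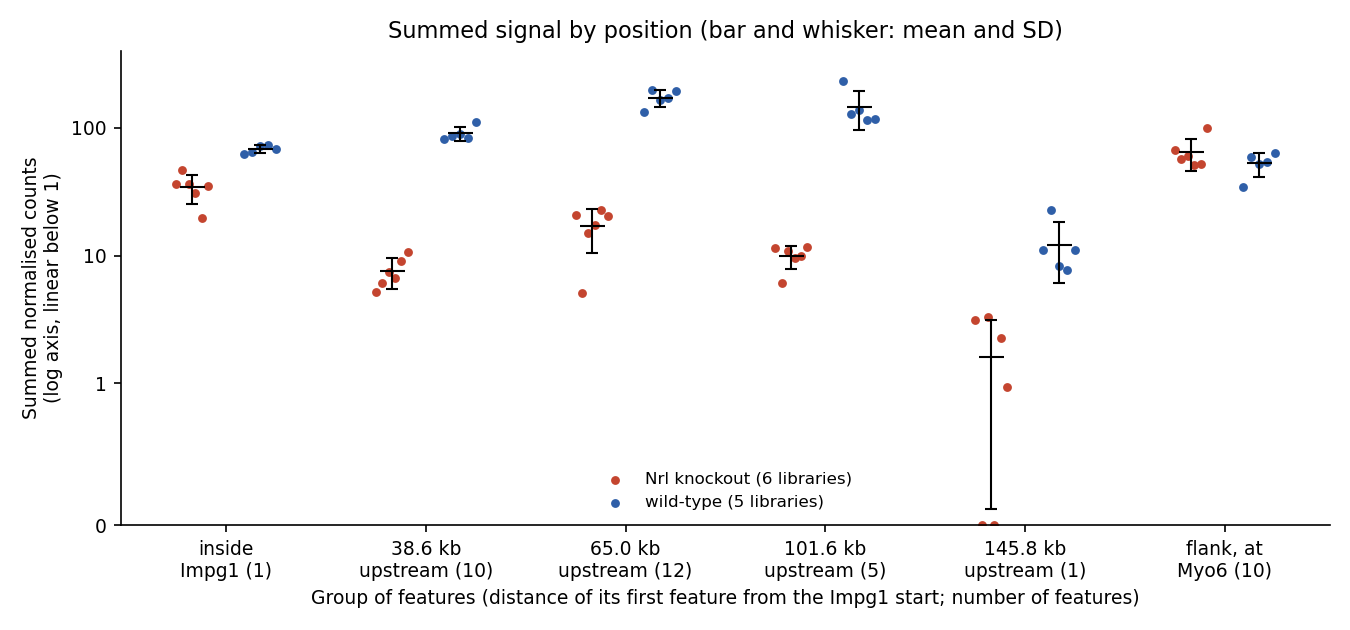
Summed normalised counts of each group of features in each library (vertical axis, log above 1 and linear below), from the feature inside Impg1 through the 4 upstream groups to the 10 flank features over Myo6; horizontal bars and whiskers are mean and SD. The genotypes do not overlap in the 5 window groups, and they overlap over Myo6.

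Of the upstream members, 5 had the highest means. MSTRG.92754, the long feature in the intron of Gm48387 (80567050 to 80589229), had 1.01 normalised counts at the lowest, 5.77 at the median and 8.79 at the highest in knockout. Its wild-type values were 147, 79.0, 91.0, 71.6 and 67.6, for means of 5.67 ± 2.70 in knockout and 91.2 ± 32.3 in wild-type. The groups lay wide apart, and wild-type 1 was high among its group. Being long, the feature was thin, at 4.11 normalised counts per kb in wild-type.

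MSTRG.92748, which crosses the 43-base Gm48387 exon shown above, had 1.01 at the lowest, 3.44 at the median and 8.79 at the highest in knockout. Its wild-type values were 27.4, 36.7, 40.8, 34.8 and 40.3, for means of 4.09 ± 2.94 in knockout and 36.0 ± 5.42 in wild-type. The highest knockout library stayed below the lowest wild-type library. Its neighbour MSTRG.92746 (80542788 to 80543488), over no gene, had 0.976, 3.51 and 7.28 at the lowest, median and highest in knockout, and 16.5, 43.3, 26.0, 22.2 and 25.2 in wild-type. Its means were 3.47 ± 2.40 in knockout and 26.6 ± 10.03 in wild-type, and the groups did not overlap.

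MSTRG.92755 (80591781 to 80592132), in the Gm48387 intron, had 0.758, 1.81 and 4.16 at the lowest, median and highest in knockout, and 30.2, 16.9, 21.3, 19.3 and 24.2 in wild-type. Its means were 2.09 ± 1.30 in knockout and 22.4 ± 5.10 in wild-type, and no knockout library reached a wild-type one. MSTRG.92756 (80593076 to 80593290), in the same intron, had 0, 0.895 and 3.03 in knockout, and 38.4, 19.8, 8.35, 10.6 and 15.1 in wild-type. Its means were 0.972 ± 1.11 in knockout and 18.5 ± 12 in wild-type (SD, n = 6 and 5). Its wild-type values spread widely, with wild-type 1 the highest and wild-type 3 the lowest, and all lay above the knockout values.

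On the scale of log2(normalised count + 1), which understates the change of low features, the knockout minus wild-type differences were -1.01 for MSTRG.92726 and -3.88 for MSTRG.92754. They were -3.06 for MSTRG.92748, -2.75 for MSTRG.92746, -3.00 for MSTRG.92755 and -3.28 for MSTRG.92756. The median over all 29 members was -2.70, against -0.02 over all 21395 features tested. No member differed in the opposite direction to the window sum.

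**Figure D4:**
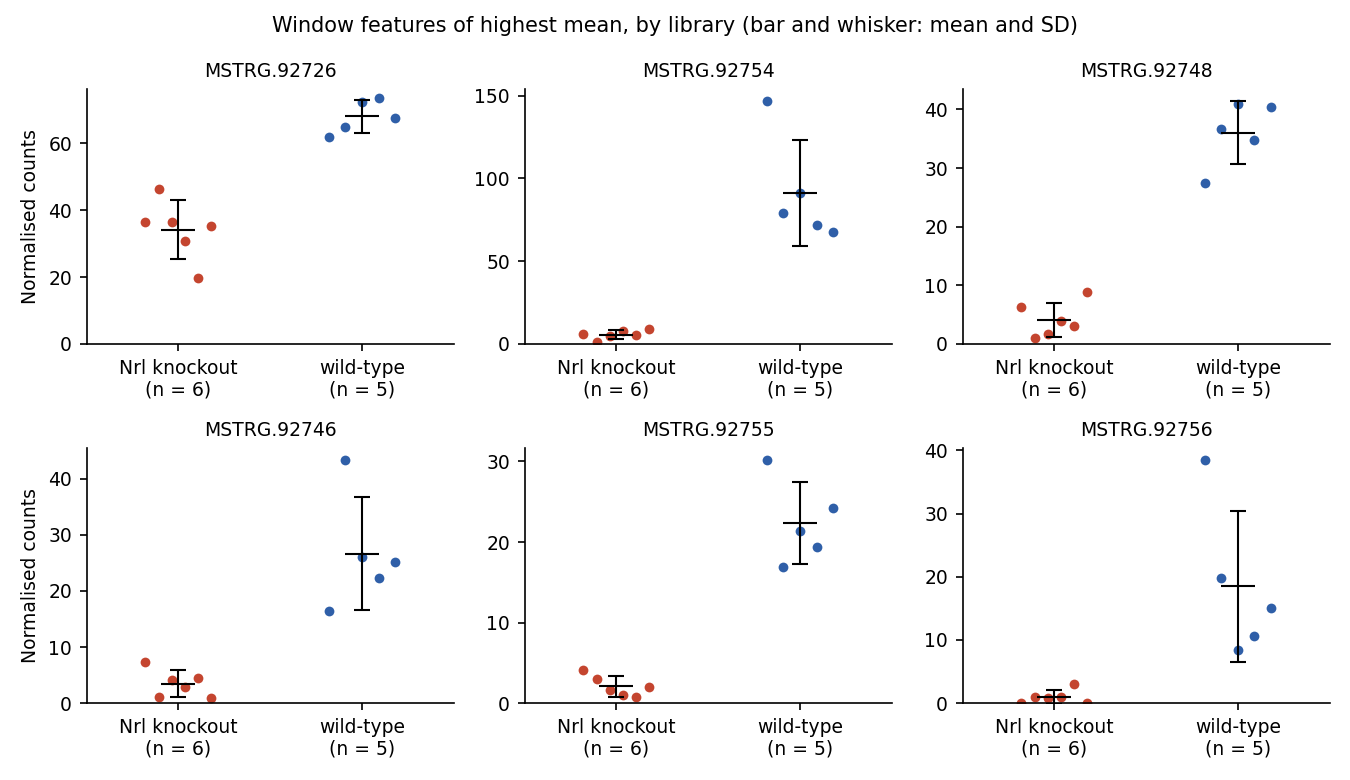
Normalised counts in each library for the 6 window features of highest mean, with Nrl knockout on the left and wild-type on the right of each panel; bars and whiskers are mean and SD. The gap between genotypes is narrowest in proportion at MSTRG.92726, with means of 34.2 in knockout and 68.0 in wild-type.

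The remaining 23 members were low in both genotypes. Their means ran from 0.138 to 2.42 normalised counts in knockout, with a median of 0.821, and from 4.52 to 16.7 in wild-type, with a median of 8.28. Of all 29 members, 23 had a knockout mean below 2 and 16 a mean below 1. Up to 3 reads over the 6 knockout libraries were counted at 7 members. In a single library 3 reads, the most that a count of 0 allows, were worth 2.28 to 3.12 normalised counts in knockout and 2.78 to 4.11 in wild-type, as counting error only. The number of upstream features at 0 was 13, 16, 8, 12, 10 and 12 of 28 in knockout 1 to 6, and 0 of 28 in each wild-type library. Many of these members are thus not told from 0 in the knockout at this depth.

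Every knockout library lay below every wild-type library at 27 of 29 members, beside 6.32% of all listed features. The exceptions were MSTRG.92740, with means of 0.659 in knockout and 5.84 in wild-type, and MSTRG.92758, with 0.895 in knockout and 5.92 in wild-type. In a fit over the whole table with limma, on features with a mean of at least 5, 17 members were tested and 17 were called lower in the knockout, where 12.6% of all tested features were called lower and 28.1% in either direction. In the authors' deposited table all 29 members were lower at an adjusted p below 0.05, with a background of 8.48%, and their deposited log2 fold changes ran from -4.98 to -1.01. The window was chosen on this contrast, so nothing is read from these counts.

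The sides of the window differed in what they held. On the lower-coordinate side, 10 of the 11 flank features lay on the minus strand over Myo6, which encodes an unconventional myosin motor and is transcribed from the plus strand. Their sum was 64.0 ± 17.9 normalised counts in knockout and 52.7 ± 11.2 in wild-type (SD, n = 6 and 5). Its values in knockout were 50.9 at the lowest, 58.1 at the median and 98.6 at the highest, and in wild-type 34.3, 54.2 and 63.6. These groups overlapped. The highest of the 10, MSTRG.92719, had 21.5 ± 6.11 in knockout and 17.6 ± 3.58 in wild-type. Of the 11 flank features, 4 were tested and limma called 0, beside 28.1% of all tested features called in either direction. Of these 4, 0 had an unadjusted limma p below 0.05 and 0 were called by edgeR or DESeq2. With only 4 tested, the count of 0 does not show that the flank is unchanged.

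The eleventh flank feature was MSTRG.92725 (80387510 to 80387645), in an Impg1 intron and on the plus strand like the window members. It measured 1.26 ± 1.43 in knockout and 4.34 ± 3.26 in wild-type, below the mean needed for testing. It is the nearest feature outside the border on that side, 74.3 kb from MSTRG.92726, the nearest inside. On the other side MSTRG.92760 was the last inside. The next listed feature, MSTRG.92763 (81268180 to 81268312, minus strand), lay 656 kb farther on and had 1.39 ± 0.539 in knockout and 3.79 ± 1.58 in wild-type. The annotated non-coding genes Gm39380 and Gm27224 in that flank had no listed feature over them.

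The authors placed the window in a chromosomal domain that holds 153 listed features. Besides the window and the flank, 113 lay farther on, 108 on the minus strand and 5 on the plus strand. Their summed means were 618 normalised counts in knockout and 856 in wild-type. Of 49 tested there, limma called 2 lower and 0 higher in the knockout, beside 12.6% lower and 15.6% higher over all tested features. These were MSTRG.92806, at 5.08 ± 4.33 in knockout and 13.8 ± 4.67 in wild-type with an adjusted p of 0.0157, and MSTRG.92877, at 23.7 ± 5.78 in knockout and 39.9 ± 6.63 in wild-type with an adjusted p of 0.0153. Both are named after their values were seen. Without wild-type 1, MSTRG.92806 was not called (adjusted p = 0.0516, with a range of 0.00638 to 0.0516 over single omissions). edgeR and DESeq2 each called 1, and the median log2 difference of the 49 was -0.43. The authors' deposited table lists 1 mRNA of this domain as lower in the knockout, Impg1, and none as higher.

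Genes of the interphotoreceptor matrix were followed through the non-coding features that overlap them. Of 14 genes, Impg1 included, 7 had a listed feature, each on the strand opposite to its gene. Of the 16 features tested there, limma called 1 lower, 1 higher and 14 neither, with a median log2 difference of 0.07, beside 12.6% lower and 15.6% higher over the table. The lower one was MSTRG.92726 itself. Without Impg1, 6 of 13 genes had a feature, and of 15 tested features 0 were called lower and 1 higher, with a median of 0.16. At Cd44, which encodes a hyaluronan receptor, the highest feature, MSTRG.50586, had 24.6 ± 9.82 in knockout and 16.25 ± 3.89 in wild-type and was not called. The one called higher, named after its values were seen, was MSTRG.50588 at the same gene, at 16.3 ± 4.45 in knockout and 9.12 ± 6.57 in wild-type with an adjusted p of 0.0451. It was no longer called when any 1 of 7 libraries was left out (knockout 2, 3, 4 or 5, or wild-type 1, 2 or 3), and its adjusted p then ran from 0.00625 to 0.146 over all 11 omissions.

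No tested feature was called at Impg2, Rbp3, Egflam or Serpinf1. Impg2 encodes the second proteoglycan of this matrix, and its highest feature, MSTRG.36048, had 15.9 ± 4.80 in knockout and 12.6 ± 4.93 in wild-type. The other features tested at Impg2 had lower means in the knockout, MSTRG.36050 with 6.64 ± 4.87 in knockout and 13.4 ± 7.06 in wild-type, and MSTRG.36049 with 5.27 ± 4.01 in knockout and 8.23 ± 5.81 in wild-type. MSTRG.36050 had a log2 difference of -1.09 and a limma adjusted p of 0.0724, and it was called lower when knockout 2 (0.0492) or knockout 4 (0.0250) was left out, within a range of 0.0250 to 0.192. Rbp3 encodes the retinoid carrier of the matrix, and MSTRG.27598 there had 18 ± 5.45 in knockout and 15.8 ± 3.63 in wild-type. MSTRG.30533 at Egflam, which encodes pikachurin of the photoreceptor synapse, had 7.53 ± 3.73 in knockout and 5.28 ± 2.49 in wild-type. MSTRG.15361 at Serpinf1, which encodes a secreted anti-angiogenic factor, had 70.2 ± 16.7 in knockout and 73.2 ± 8.17 in wild-type. The authors' deposited table lists the mRNAs of Impg1 and Acan among those lower in the knockout and that of Cd44 among those higher, and 10 of the 14 are in neither list.

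Features at rod marker genes were mostly called lower in the knockout, like the window signal, and those at cone marker genes more often higher than lower. Every listed feature at these genes lay on the strand opposite to its gene, so the markers' own transcripts were not measured here. At 17 of 22 rod genes that had a feature, 36 of 47 tested features were called lower and 4 higher, beside 12.6% lower and 15.6% higher over the table, with a median log2 difference of -2.68. The 4 lay at Sag and Pde6b, named after their values were seen, and the authors list the mRNAs of both genes as lower. MSTRG.68455 at Cnga1, which encodes a subunit of the rod cyclic nucleotide-gated channel, was near 0 in the knockout, averaging 0.289 in knockout and 328 in wild-type, and is likewise named after its values were seen. The rod features' summed signal was 584 to 997 in knockout libraries and 3891 to 6425 in wild-type libraries. At 12 of 15 cone genes, 5 of 31 tested features were called lower and 17 higher, with a median of 1.70 and sums of 1364 to 2058 in knockout and 586 to 861 in wild-type. The 5 lower ones lay at Guca1a, Pde6c and Grk1, the last of which is also in the rod list. At 9 of 25 genes of other retinal cells, 1 of 14 was called lower, at Prkca, and 1 higher, at Cabp5, both known from bipolar cells, with sums of 533 to 745 in knockout and 454 to 739 in wild-type. The authors' deposited table lists 21 of the 22 rod mRNAs as lower. Of the 15 cone mRNAs it lists 11 as higher and 1, Grk1, as lower, and of the 25 of other retinal cells 4 as higher, among them Cabp5 and Gfap, and 1, Prkca, as lower. The part of these markers in the window values was not tested. In whole retina, fewer rods and less RNA per cell cannot be told apart.

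The libraries fitted their labels and their depths overlapped. MSTRG.28375, on the strand opposite to Nrl, was at 0 in 5 knockout libraries and at 0.758 in the other, and at 33.3 to 55.5 in wild-type. The listed features held 3374221 to 4876429 reads in knockout and 3238184 to 4150460 in wild-type. Across tested features, pairs of libraries correlated at 0.890 to 0.941 within knockout, 0.880 to 0.941 within wild-type and 0.672 to 0.745 between genotypes, where features are not independent replicates.

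Features elsewhere with the most similar pattern over the 11 libraries were also low in the knockout. Pearson's r of log2(normalised count + 1) with the window sum was highest, at 0.999, for MSTRG.65404 on chromosome 4 and MSTRG.17940 on chromosome 11. The first lies opposite to Ube4b and over Ube4bos1 on that gene's own strand, and the second lies opposite to Sec14l1. MSTRG.23567 on chromosome 13, MSTRG.18548 on chromosome 12, opposite to Klhl29, and MSTRG.84881 on chromosome 8 followed at 0.998. The 11 libraries fall into the 2 genotypes, which set most of such an r, and it is given as a ranking only. The drop itself differed widely among them, from 21.5 in knockout and 218 in wild-type at MSTRG.18548 to 0.336 in knockout and 375 in wild-type at MSTRG.23567. By deviations from the genotype means, the closest were MSTRG.92354, MSTRG.97098, MSTRG.72259, MSTRG.51993 and MSTRG.3490, at 0.911 down to 0.864, and their means differed less between genotypes. Their means ran from 29.2 ± 8.77 in knockout and 31.2 ± 6.78 in wild-type at MSTRG.51993 to 7.45 ± 3.31 in knockout and 3.68 ± 1.90 in wild-type at MSTRG.3490. The r values of this measure are likewise a ranking only, being the highest picked from many features over 11 libraries.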

How the data were processed

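Per the labels' protocols, single-end stranded 50 bp reads were sequenced. Builds mm9 and mm10 and the tools TopHat2 (2.0.10), Cufflinks (2.2.1) and Cuffdiff appear in the submitters' processing notes, without roles. Per the file headers, the authors' signal values are DESeq2-normalised counts on mm10. The authors' own comparison gives deposited log2 fold changes, a deposited test score and deposited p-values. The deposited score has the opposite sign to the fold change in 100% of features, so it was not used for direction. The sources used here do not state the counting tool or its use of strand.

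Starts in the table count from 0, and 1 was added: 142 of 155 features with Ensembl names then began where GENCODE M21 places them. Of 36180 lines, 83 repeat a feature in a further domain. The 29 window members, the 4 gene lists (interphotoreceptor matrix, rod, cone, other retinal cells) and the tests were chosen with earlier results of these data known. A feature belonged to a gene whose span it overlapped on either strand. Named were the 6 window features of highest mean, the features at each border, the highest at each flank gene and at Impg2, Rbp3, Egflam, Serpinf1 and Cd44, and the 5 most similar by each measure.

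limma 3.58.1 (R 4.3.3; trend, robust, two-sided) was run on log2(normalised count + 1) for the 21395 features with a mean of at least 5, with Benjamini-Hochberg adjustment and calls at 0.05. It was tested on simulated data. Values were whole multiples of 1 read in 100% of cases (tolerance 0.01), so edgeR 4.0.16 and DESeq2 1.42.0 were run on the reads of 9 libraries. Knockout 2 and wild-type 5 were left out of those by a choice of procedure, because a read equals nearly 1 normalised count there. edgeR called 11.8% and DESeq2 11.7% of features lower, and each called 17 members. Intervals and floors cover counting error only. Values were tabulated with Python 3.11.15, pandas 2.3.3, NumPy 2.4.6 and matplotlib 3.10.9. Some results are not reported here.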

Additional observations from a re-analysis of the deposited data

Results flagged for a closer look

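Of 30 groups of libraries examined, 6 held a library that stood apart by Dixon's test for a single extreme value. For independent groups of normal values chance gives this in about 1 of 20. These groups are not independent, since sums were examined beside their own parts, and some values rest on few reads. The count is thus not set against that rate. For the upstream group over Gm48387 (MSTRG.92754 to MSTRG.92758), knockout 2 was low at 6.06 normalised counts, with the other knockout libraries at 9.60 to 11.7, and wild-type 1 was high at 232, with the other wild-type libraries at 114 to 136. For the flank on the lower-coordinate side, knockout 6 was high at 98.6, with the other knockout libraries at 52.8 to 67.6. Its features over Myo6 alone gave knockout 6 the same sum of 98.6, with the others at 50.9 to 66.5. At MSTRG.92756, knockout 5 was high at 3.03, with the others at 0 to 1.01. At MSTRG.92760, wild-type 2 was high at 22.6, with the other wild-type libraries at 7.74 to 11.1. These values were not excluded from any sum.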

How the results depend on the processing

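The window sum and the 6 named window features stayed lower in the knockout under every setting tried for them. In each of them every knockout library lay below every wild-type library. Leaving out a library or changing the pseudocount therefore could not reverse the direction, and only the sizes of the differences are informative. Without a filter on low values, 29 of 29 window members tested were called in place of 17 of 17, beside 7607 of 36097 over the table. With a mean of at least 20, 2 of 2 were called, beside 3350 of 8266 over the table, where the main fit called 6022 of 21395. At that filter the matrix list gave 1 of 3, the rod list 22 of 23 and the cone list 14 of 18. Counting features within 5 kb of a gene gave 5 of 21 tested at the matrix list and 5 of 20 at the other retinal cells list, beside 28.1% over the table. The log2 ratio of the window sum was -2.80, -3.54 without MSTRG.92726 and -2.62 without the long MSTRG.92754, the last chosen after seeing the data. With a pseudocount of 4, MSTRG.92748, MSTRG.92746, MSTRG.92755 and MSTRG.92756 moved to -2.37, -2.04, -2.12 and -2.06. Leaving out 1 library at a time gave 15 to 17 calls in the window, 0 in the flank, 5522 to 6269 over the table, 1 to 2 at the matrix list, 35 to 41 at the rod list, 19 to 24 at the cone list and 2 at the other retinal cells list, and a window ratio of -2.84 to -2.77. No flank feature was left at a mean of at least 20.

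Whether replicate numbers pair the samples is not settled. Deviations of same-numbered libraries correlated at 0.294, 0.00135, 0.123, 0.0512 and 0.273. The same-numbered wild-type library was the best match for knockout 1 and 5, and another was for knockout 2, 3 and 4. A fit with the replicate block gave 17 calls in the window, 0 in the flank and 6916 over the table, where the main fit gave 6022. The remaining 111 values of comparisons and 86 of single features stayed within the limits set for a change, but without knockout 2 or knockout 4 the 2 calls at the matrix list were both lower.

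Depth is a limit. Most members averaged under 3 reads per knockout library, so the percentage left is uncertain for single features and firmer for sums.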

Other observations

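The deviation of each of the 28 features upstream of Impg1 from its genotype means was set against that of the summed others over the 11 libraries, and Pearson's r had a median of 0.183 and ran from -0.596 to 0.653, above 0 at 21 of 28. The points share library and depth, most members had few reads, and the values are given as a description. The lowest r was that of MSTRG.92734, with 38 reads in the wild-type libraries, and the highest that of MSTRG.92754, with 430 reads.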
